A study of Homo sapiens with 15 samples.

Results

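Ribosome footprints were examined for 35 human genes of glycolysis and the hypoxia response. The members are the rows of the deposited normalized count table whose gene symbol is on a list of glucose and lactate transporters, glycolytic enzymes, regulators of glycolytic flux, oxygen sensors and other hypoxia response genes. All 35 were found among the 55773 gene names of the table, and 34 passed the filter on low values in each fit. The exception was CA9, the membrane carbonic anhydrase used as a hypoxia marker, which had 0 reads in all 9 Flag/HA libraries. In the same gene, 2, 3 and 2 reads were counted in the libraries labelled ZC3H7A/B-DD and 0, 2 and 2 in the Parental libraries.

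The study profiled ribosomes in HEK293 cells, which derive from human embryonic kidney, with 5 groups of 3 libraries (15 in all). Flag/HA-ZC3H7A and Flag/HA-ZC3H7B cells carry a doxycycline-inducible, tagged copy of ZC3H7A or ZC3H7B, which encode CCCH zinc finger RNA-binding proteins, and Flag/HA control cells are their reference. The tagged proteins were induced in HEK293 cells of a Flp-In T-REx line with doxycycline at 1 µg/mL for 24 h, and the treatment label of the control cultures, which express the Flag/HA tag, also reads doxycycline. Footprints of all 9 cultures were released with RNase I after hypotonic lysis. The other set compares ZC3H7A/B-DD cells, whose genotype label pairs loss of ZC3H7A (KO) with an shRNA to ZC3H7B, with Parental cells, labelled wild type with a control hairpin. Both of those lines were grown under puromycin at 5 µg/mL until shortly before collection and lysed from frozen pellets in a buffer with cycloheximide at 100 µg/mL, and their libraries were made by EIRNA Bio. The labels call the Flag/HA replicates independent and say nothing of this for the other set, so its p-values may reflect only technical spread between libraries. Whether each line is 1 clone is not given in the sources used here. Levels were compared within a set and never between sets.

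Glycolysis splits glucose into pyruvate, and lactate dehydrogenase turns pyruvate into lactate when mitochondria do not take it up. Hypoxia-inducible factor 1 (HIF-1) is the transcription factor that raises many of these genes when oxygen is low. Its alpha subunit, encoded by HIF1A, is marked for destruction by the oxygen-dependent prolyl hydroxylases EGLN1 and EGLN3. Genes such as VEGFA, NDRG1, BNIP3, ADM and PDK1 are widely used as readouts of HIF-1 activity. The oxygen level of the cultures is not given in the sources used here.

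The targeted genes were checked first. ZC3H7A had 37858, 37598 and 38675 normalized counts in Flag/HA-ZC3H7A cells, against 6509, 6526 and 6607 in Flag/HA control cells. ZC3H7B had 27538, 27182 and 28936 normalized counts in Flag/HA-ZC3H7B cells, against 2230.5, 2137 and 2089 in control cells. Each tagged line carried more footprints of its own gene. ZC3H7B was also higher in Flag/HA-ZC3H7A cells (log2 change 0.39 ± 0.05 SE, adjusted p = 2.44e-07), and ZC3H7A was lower in Flag/HA-ZC3H7B cells (log2 change -0.46 ± 0.04 SE, adjusted p = 1.25e-09). Libraries labelled ZC3H7A/B-DD gave ZC3H7A 7116, 1890.3 and 5066 normalized counts, against 1885, 1819.9 and 2311 in Parental libraries, and ZC3H7B 3948, 2399 and 2969, against 2479, 2321 and 2609. Neither gene was lower in these libraries (log2 change 1.03 ± 0.39 SE, adjusted p = 0.085 for ZC3H7A, and log2 change 0.30 ± 0.16 SE, adjusted p = 0.198 for ZC3H7B, limma), and their ranges overlap, so the depletion in the label was not visible in footprints, and directions given for this contrast are those of libraries carrying that label. Without ZC3H7A/B-DD replicate 2, both genes were called higher under that label (log2 change 1.59, adjusted p = 0.00124 for ZC3H7A, and log2 change 0.47, adjusted p = 0.0463 for ZC3H7B), and over the alternatives the adjusted p lay between 6.79e-04 and 0.244 for ZC3H7A and between 0.00831 and 0.523 for ZC3H7B. With every library kept, edgeR also called ZC3H7A higher (log2 change 1.21, adjusted p = 0.0489). So did limma without the filter on low values, with array weights and with all 15 libraries in 1 fit. Array weights called ZC3H7B higher too. Recovered reads assigned to genes ranged between 20777204 and 42680589 per library. Replicates of 1 group differed beyond counting noise, with a chi-square per degree of freedom of 1.65 to 6.06 in the Flag/HA groups and 8.72 to 87.9 in the other 2 groups, where Parental replicate 3 stood apart from Parental replicates 1 and 2. All 8 HEK293 markers were detected in every group. Their summed level was 27449.6 to 29363 in Flag/HA-ZC3H7A and 25316 to 28522 in Flag/HA-ZC3H7B, against 21324 to 22584 in Flag/HA control libraries, and 41044 to 45728 in libraries labelled ZC3H7A/B-DD, against 22711 to 32505 in Parental libraries. VIM made up most of each of these sums. By gene, 1 of the 8 was called higher and 4 lower in libraries labelled ZC3H7A/B-DD, where 24.5% of all genes were called. The median log2 change of the 8 was -0.36 there. In each overexpressing line, 2 were called higher and 2 lower than in control. The 4 blood markers, all detected, summed to 185 to 264, 309 to 413 and 596 to 789.9 in the Flag/HA groups in the same order, and to 118 to 152 and 114 to 176 in the other groups. HBB alone made up most of each blood sum. The 7 fibroblast markers summed to 154 to 172, 158 to 199 and 108 to 139, and to 396 to 504 and 580.3 to 765, in those orders. Endothelial markers summed to at most 33.1, with CDH5 at 0 in Flag/HA-ZC3H7B and control libraries. The part of these markers in the results was not tested.

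A difference was called at an adjusted p under 0.05 with limma on log2(value + 1), with Benjamini-Hochberg adjustment over all genes tested, and changes are on that scale. In Flag/HA-ZC3H7A against Flag/HA control cells, 22 of the 34 members tested were called, 12 higher and 10 lower, where 57.5% of all 15599 genes tested were called. In Flag/HA-ZC3H7B against Flag/HA control cells, 17 were called, 11 higher and 6 lower, where 54.3% of all genes were called. In the libraries labelled ZC3H7A/B-DD against Parental libraries, 11 members were called, 4 higher and 7 lower, where 24.5% of 17092 genes were called. Single libraries moved this last count: 4 members were called without Parental replicate 2, 7 without Parental replicate 1 or without ZC3H7A/B-DD replicate 3, and 15 without Parental replicate 3. By direction, 29.2% of all genes were higher and 28.2% lower in Flag/HA-ZC3H7A, 28.9% and 25.4% in Flag/HA-ZC3H7B, and 11% and 13.5% in libraries labelled ZC3H7A/B-DD. The ranges of the compared groups did not overlap for 24 members in Flag/HA-ZC3H7A (63.9% of all genes), 17 in Flag/HA-ZC3H7B (61.1%) and 14 in libraries labelled ZC3H7A/B-DD (40.8%). Called changes of at least 2-fold were few, with 4 members in Flag/HA-ZC3H7A (8.67% of all genes), 1 in Flag/HA-ZC3H7B (7.65%) and 3 in libraries labelled ZC3H7A/B-DD (4.94%). The median member moved by a log2 change of -0.02, 0.03 and 0.01 against 0.02, 0.04 and 0.02 over all genes. The module did not shift as a block in any of the 3 comparisons, and in each comparison some members rose while others fell. Footprints count ribosomes on an mRNA in a bulk lysate, so more mRNA, more ribosomes per mRNA and a change in the mix of cells cannot be told apart. The 2 overexpression comparisons share their 3 control libraries, and their values are given side by side with no claim of independent repeats.

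**Figure D1:**
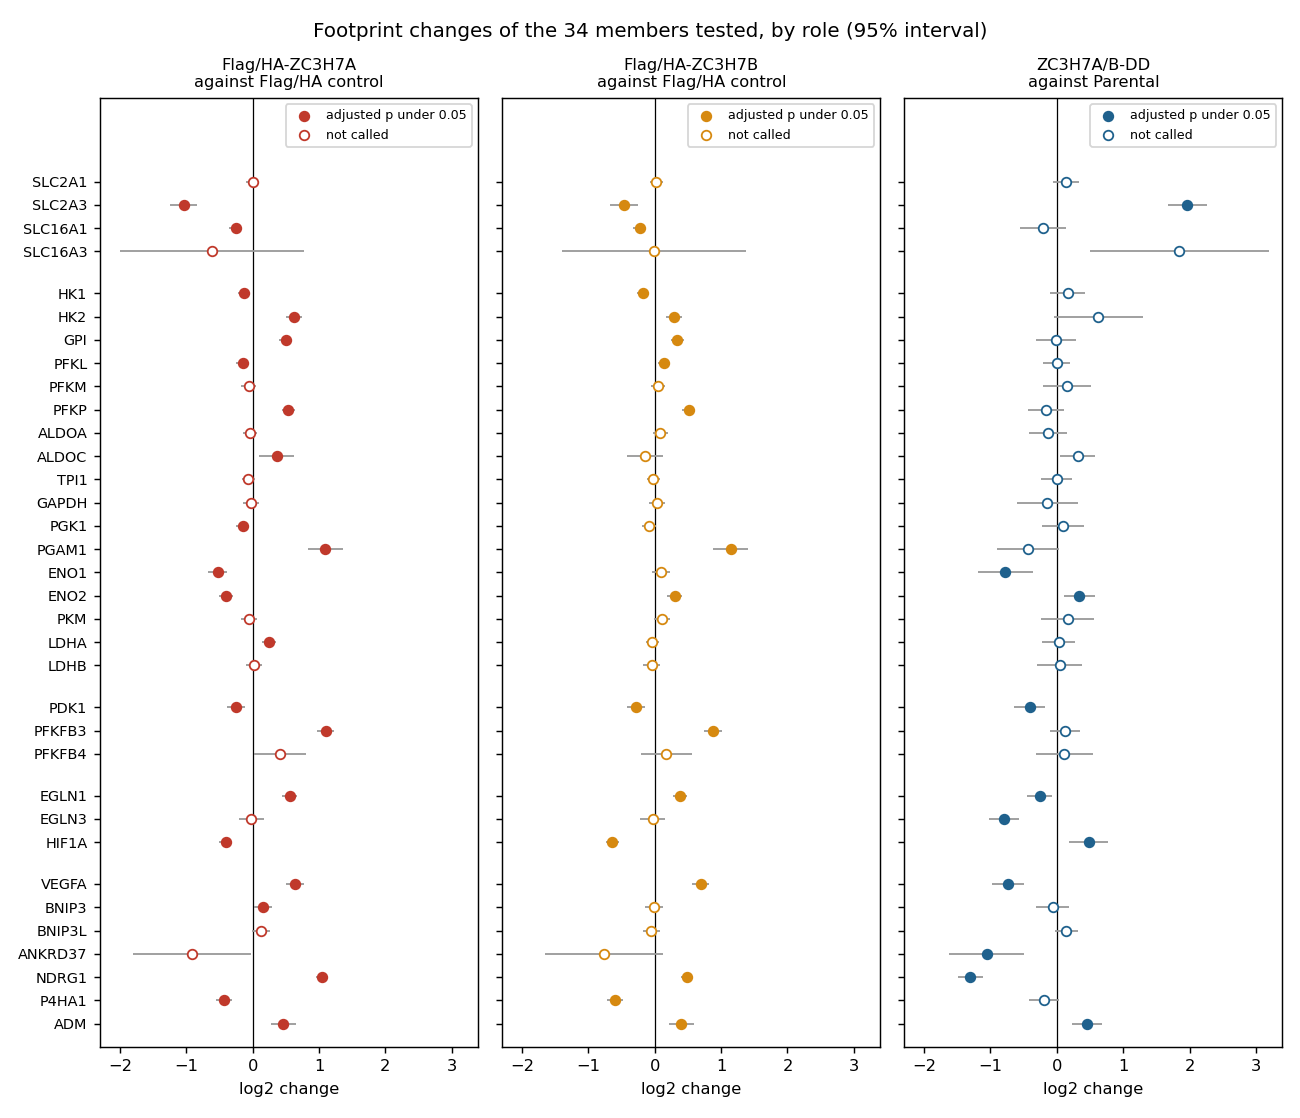
Log2 change in footprints (x axis) of the 34 members tested, grouped by role down the page (transporters, glycolytic enzymes, flux regulators, oxygen sensing, other hypoxia response genes), with the 95% interval. Filled points have an adjusted p under 0.05: 22 in the left panel, 17 in the middle panel and 11 in the right panel.

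The series' title names codon-dependent regulation, and the members' coding sequences differ widely in their codons. AT3 is the percentage of a gene's codons, start and stop left aside, that end in A or T, taken from the main GENCODE release 29 coding sequence. It ran between 12.7% and 66.7% across the 35 members, with a median of 34.4% against 39.8% over 13586 detected genes. Among members called in both overexpressing lines in the same direction, HIF1A and P4HA1 have the highest AT3 and PFKFB3 the lowest. These are shown, with PFKP as another low-AT3 member that rose in both lines, by the first 60 codons of their coding sequence, read from GENCODE on GRCh38 with introns removed. Capitals mark an A or T in the third codon position. HIF1A (chr14:61695805-61720526 on the plus strand, over 2 coding exons) has 37 such codons of the 60, P4HA1 (chr10:73072174-73074883 on the minus strand, 3 coding exons) has 39, PFKP (chr10:3067596-3082455 on the plus strand, 2 coding exons) has 7 and PFKFB3 (chr10:6203261-6213726 on the plus strand, 2 coding exons) has 6.
HIF1A: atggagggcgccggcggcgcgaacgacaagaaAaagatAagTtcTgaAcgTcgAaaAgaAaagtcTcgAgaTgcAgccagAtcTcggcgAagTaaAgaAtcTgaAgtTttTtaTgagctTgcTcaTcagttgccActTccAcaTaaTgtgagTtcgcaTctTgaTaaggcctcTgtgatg
P4HA1: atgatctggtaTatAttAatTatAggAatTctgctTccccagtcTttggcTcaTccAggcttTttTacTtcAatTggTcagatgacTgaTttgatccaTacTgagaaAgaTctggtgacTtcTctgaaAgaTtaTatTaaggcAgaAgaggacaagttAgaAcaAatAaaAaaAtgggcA
PFKP: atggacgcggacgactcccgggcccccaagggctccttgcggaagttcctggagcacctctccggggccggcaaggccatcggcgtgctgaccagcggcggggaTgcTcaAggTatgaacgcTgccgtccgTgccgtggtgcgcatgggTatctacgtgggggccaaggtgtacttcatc
PFKFB3: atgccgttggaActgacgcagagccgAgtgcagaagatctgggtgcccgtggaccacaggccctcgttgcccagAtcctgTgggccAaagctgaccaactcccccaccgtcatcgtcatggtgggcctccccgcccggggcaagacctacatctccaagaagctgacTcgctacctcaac
HIF1A and P4HA1 are dense in capitals and fell in both overexpressing lines, while PFKP and PFKFB3 have few and rose in both. These genes were chosen by AT3 and by their calls, so the contrast is an illustration and no support for a link. Over the whole coding sequence AT3 is 66.7% for HIF1A, 65.1% for P4HA1, 24.9% for PFKP and 19.8% for PFKFB3. ADM (23.4%), GPI (24.2%) and NDRG1 (24.2%), which also rose in both lines, lie below PFKP.

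In the 14 members below 30% AT3, 7 were higher and 1 lower in Flag/HA-ZC3H7A cells, and 8 were higher and 0 lower in Flag/HA-ZC3H7B cells. In the 7 members at 45% or more, 1 was higher and 4 lower in Flag/HA-ZC3H7A cells, and 0 were higher and 4 lower in Flag/HA-ZC3H7B cells. The 13 members between 30% and 45% showed no clear lean. Of these, 4 were higher and 5 lower in Flag/HA-ZC3H7A cells, and 3 higher and 2 lower in Flag/HA-ZC3H7B cells. The genes of the whole table leaned the same way below 30% and at 45% or more. Below 30% AT3, 41.2% of 4049 genes were higher and 18.8% lower in Flag/HA-ZC3H7A cells, and 39.4% were higher and 15.1% lower in Flag/HA-ZC3H7B cells. At 45% or more, 23.3% of 5615 genes were higher and 43.4% lower in Flag/HA-ZC3H7A cells, and 21.7% were higher and 42.4% lower in Flag/HA-ZC3H7B cells. Between 30% and 45%, 33.0% of 3191 genes were higher and 26.3% lower in Flag/HA-ZC3H7A cells. In Flag/HA-ZC3H7B cells 34.1% of them were higher and 21.5% lower. Across the 34 members, Pearson's r between AT3 and the log2 change was -0.39 for Flag/HA-ZC3H7A and -0.61 for Flag/HA-ZC3H7B (Spearman's rho -0.40 and -0.68). Across 12855 genes r was -0.19 and -0.23 (rho -0.26 and -0.29). These are descriptions across genes that share libraries and base composition, not tests. In the libraries labelled ZC3H7A/B-DD the members' r was -0.11 (rho -0.04), against 0.06 (rho 0.11) across 13018 genes. Members went against the lean too: LDHA, at 53.5% AT3, was the 1 member at 45% or more that rose in Flag/HA-ZC3H7A cells, and LDHB, at 57.7%, was called in neither line with the deposited scaling. PFKL, at 16.3%, was the 1 member below 30% called lower in Flag/HA-ZC3H7A cells.

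**Figure D2:**
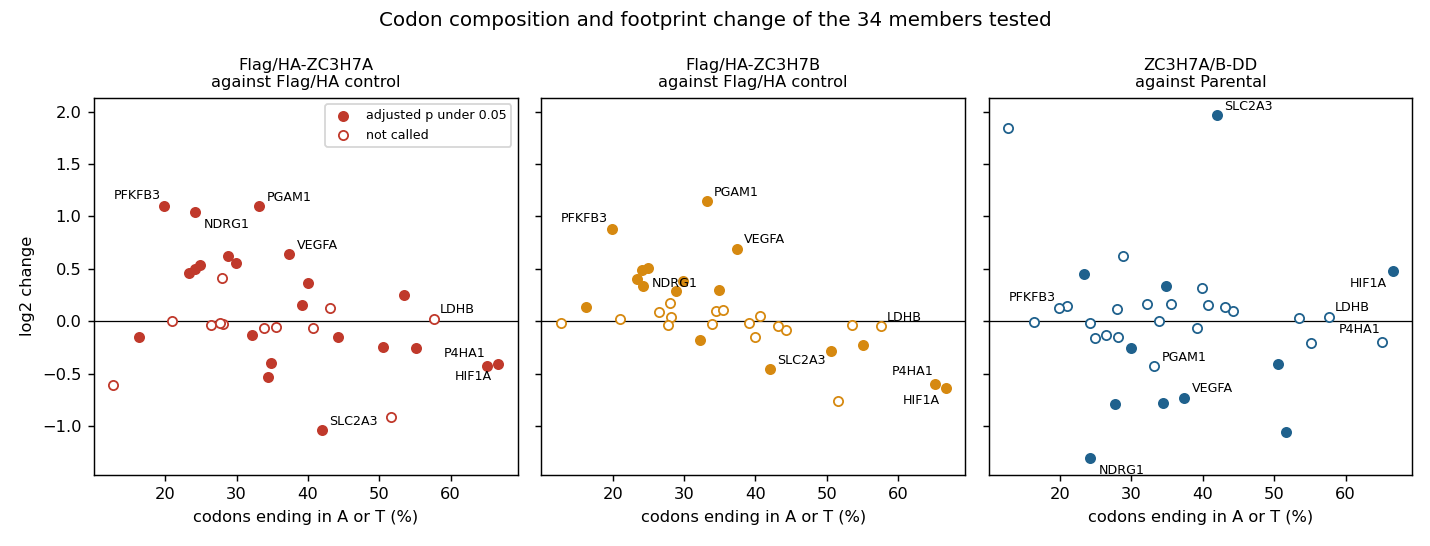
Percentage of codons ending in A or T (x axis) against the log2 change in footprints (y axis) for the 34 members tested, 1 panel per comparison, with filled points at an adjusted p under 0.05. In the Flag/HA-ZC3H7B panel the 8 called members below 30% lie above 0 and the 4 called members at 45% or more lie below 0, while the right panel shows no such slope (r = -0.11).

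In both overexpressing lines HIF1A fell while EGLN1 rose, and in libraries labelled ZC3H7A/B-DD HIF1A was higher and both hydroxylases were lower. HIF1A (GRCh38 chr14:61695513-61748259), the oxygen-regulated subunit, had 10152, 10658 and 10346 normalized counts in Flag/HA-ZC3H7A cells and 8925, 9247 and 8374 in Flag/HA-ZC3H7B cells, against 14249.9, 13654 and 13406 in Flag/HA control cells. All 6 overexpression libraries lay below all 3 control libraries. HIF1A fell in both lines (log2 change -0.41 ± 0.05 SE, adjusted p = 5.47e-08 in Flag/HA-ZC3H7A, log2 change -0.64 ± 0.05 SE, adjusted p = 3.56e-11 in Flag/HA-ZC3H7B), and the level in Flag/HA-ZC3H7A cells was above that in Flag/HA-ZC3H7B cells (log2 change 0.23 ± 0.05 SE, adjusted p = 2.34e-04). In the libraries labelled ZC3H7A/B-DD it had 10750.2, 8385 and 9479.7 normalized counts, against 6130.4, 6396 and 8011 in Parental libraries, and was higher (log2 change 0.48 ± 0.13 SE, adjusted p = 0.0271). The groups did not overlap, but Parental replicate 3, the highest of its group, came close to the lowest library labelled ZC3H7A/B-DD. The HIF1A call was lost without ZC3H7A/B-DD replicate 1, ZC3H7A/B-DD replicate 3, Parental replicate 1 or Parental replicate 2, at log2 changes of 0.39, 0.48, 0.41 and 0.44, and its adjusted p lay between 1.13e-04 and 0.11 over its alternatives. HIF1A exons overlap HIF1A-AS1 on the opposite strand and AL137129.1 on the same strand, and whether reads were counted by strand is not given in the sources used here. Exons of SLC2A1, SLC16A3, GPI, PFKP, ALDOA, PGK1, LDHB and PFKFB4 also overlap another gene on the same strand. The effect of such overlaps on the counts was not tested.

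EGLN1 (chr1:231363751-231425044), the main prolyl hydroxylase that limits HIF-1 in normal oxygen, had 3224, 3075 and 3524 normalized counts in Flag/HA-ZC3H7A and 2954, 2859.8 and 2849.9 in Flag/HA-ZC3H7B cells, against 2099, 2299 and 2268 in Flag/HA control cells. It rose in both lines (log2 change 0.56 ± 0.05 SE, adjusted p = 4.48e-09 and log2 change 0.38 ± 0.05 SE, adjusted p = 2.00e-06, in that order), with no overlap with the control libraries. Libraries labelled ZC3H7A/B-DD gave 2326, 2563 and 2407, against 2856, 2795 and 3074 in Parental libraries, and EGLN1 passed the threshold narrowly on the lower side (log2 change -0.26 ± 0.08 SE, adjusted p = 0.0499). The EGLN1 call was lost without ZC3H7A/B-DD replicate 1, ZC3H7A/B-DD replicate 2, ZC3H7A/B-DD replicate 3, Parental replicate 1, Parental replicate 2 or Parental replicate 3, at log2 changes of -0.23, -0.30, -0.25, -0.27, -0.29 and -0.22, and its adjusted p lay between 0.0045 and 0.146 over its alternatives. EGLN3, a second hydroxylase that HIF-1 itself induces, had 391, 403 and 459 normalized counts in libraries labelled ZC3H7A/B-DD, against 745, 705 and 716 in Parental libraries. The groups were far apart, and EGLN3 fell (log2 change -0.79 ± 0.10 SE, adjusted p = 8.37e-04). In the overexpressing lines EGLN3 was not called, at 345 ± 14.7 in Flag/HA-ZC3H7A and 342 ± 19.0 in Flag/HA-ZC3H7B, against 349.8 ± 18.3 normalized counts in Flag/HA control cells (SD, n = 3 each). The 95% intervals of its log2 change were -0.21 to 0.17 and -0.22 to 0.16.

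**Figure D3:**
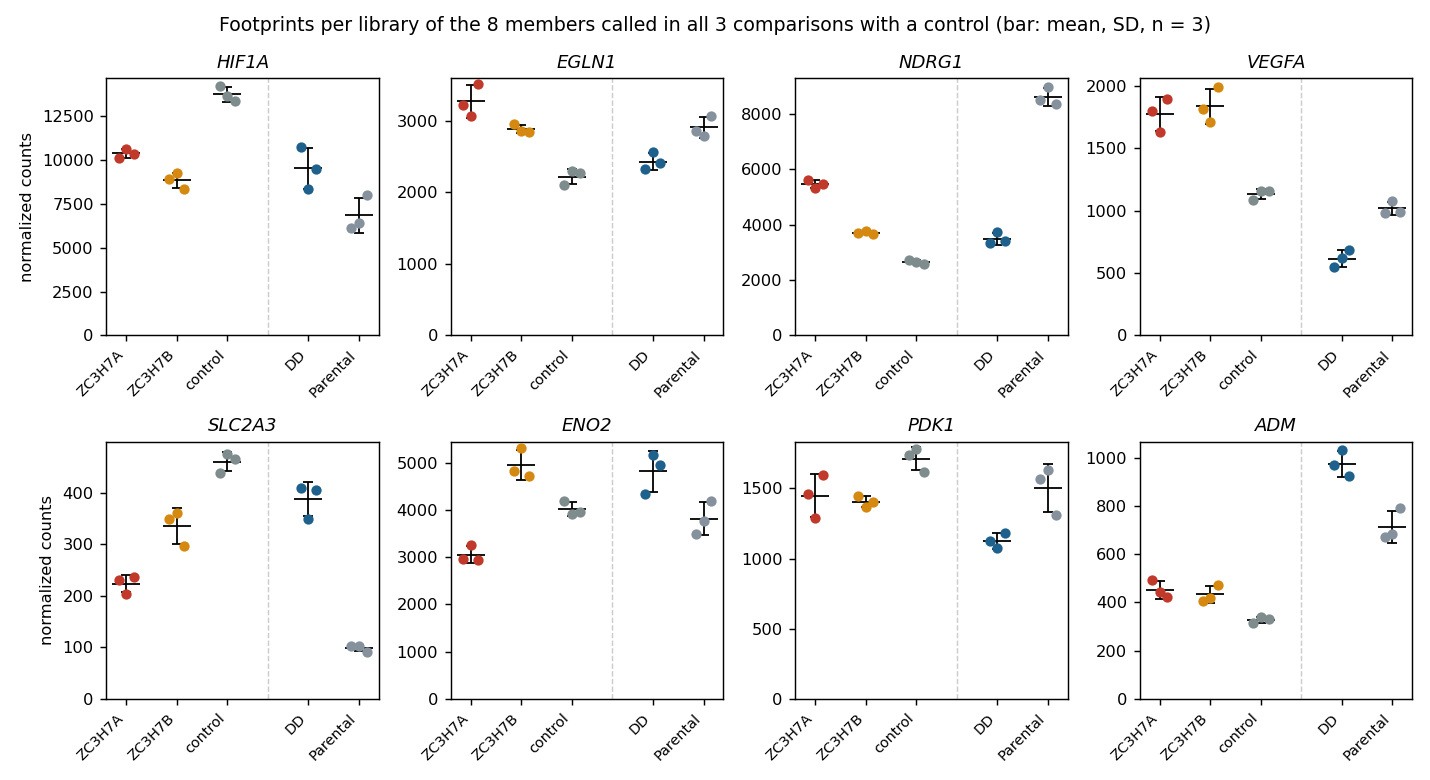
Normalized counts per library (y axis, from 0) of the 8 members called in all 3 comparisons with a control, with points for libraries and bars for the mean and SD (n = 3); the dashed line parts the Flag/HA set (ZC3H7A, ZC3H7B, control) from the libraries labelled ZC3H7A/B-DD (DD) and Parental. NDRG1 and VEGFA lie above control in the overexpressing lines and below Parental in the DD libraries, and HIF1A and SLC2A3 lie the other way round.

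NDRG1 rose in both overexpressing lines and fell in libraries labelled ZC3H7A/B-DD. This stress-responsive differentiation gene on chromosome 8 had 5596, 5319 and 5478 normalized counts in Flag/HA-ZC3H7A and 3695, 3765 and 3669.8 in Flag/HA-ZC3H7B cells, against 2725, 2637 and 2595 in Flag/HA control cells. The 3 groups did not overlap. The increases were called in both lines (log2 change 1.04 ± 0.04 SE, adjusted p = 5.13e-15 in Flag/HA-ZC3H7A, log2 change 0.48 ± 0.04 SE, adjusted p = 2.11e-09 in Flag/HA-ZC3H7B), and the level was higher in Flag/HA-ZC3H7A than in Flag/HA-ZC3H7B cells (log2 change 0.56 ± 0.04 SE, adjusted p = 3.71e-10). Libraries labelled ZC3H7A/B-DD gave 3338, 3736 and 3401, against 8516, 8964 and 8349 in Parental libraries, so that every such library held less than every Parental one. That decrease was log2 change -1.30 ± 0.08 SE, adjusted p = 2.64e-05.

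VEGFA (chr6:43770184-43786487), the angiogenic growth factor, rose and fell in the same comparisons as NDRG1. It had 1798, 1626 and 1895 normalized counts in Flag/HA-ZC3H7A and 1811, 1712 and 1987 in Flag/HA-ZC3H7B cells, against 1089, 1159 and 1158 in Flag/HA control cells. It rose in both lines (log2 change 0.64 ± 0.06 SE, adjusted p = 8.49e-09 and log2 change 0.69 ± 0.06 SE, adjusted p = 2.76e-09), and the direct difference between the lines was not called (log2 change -0.05, 95% interval -0.18 to 0.08). In libraries labelled ZC3H7A/B-DD, VEGFA had 545, 617 and 683, against 983, 1081 and 993 in Parental libraries, with no overlap, and fell (log2 change -0.73 ± 0.11 SE, adjusted p = 0.00169). SLC2A3, EGLN3, VEGFA and NDRG1 were the 4 members whose call in this contrast held in every alternative that gave a value, including each with 1 library left out.

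ADM (chr11:10304680-10307397), which encodes the vasodilator peptide adrenomedullin, was higher in every comparison with a control. ADM had 491, 442 and 423 normalized counts in Flag/HA-ZC3H7A and 407, 419 and 474 in Flag/HA-ZC3H7B cells, against 313, 339.8 and 331 in Flag/HA control cells (log2 change 0.46 ± 0.09 SE, adjusted p = 1.44e-04 and log2 change 0.40 ± 0.09 SE, adjusted p = 7.01e-04). Under the ZC3H7A/B-DD label there were 971, 1032 and 924, against 670.2, 684 and 791 in Parental libraries (log2 change 0.45 ± 0.10 SE, adjusted p = 0.0119). No group of ADM values overlapped its control. The ADM call was lost without Parental replicate 2, at a log2 change of 0.42, and its adjusted p lay between 1.63e-04 and 0.0638 over its alternatives.

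P4HA1 (chr10:73007217-73096974), a collagen prolyl hydroxylase subunit, fell in both overexpressing lines. It had 4883, 5571 and 4548 normalized counts in Flag/HA-ZC3H7A and 4367, 4624 and 4287 in Flag/HA-ZC3H7B cells, against 6900.3, 6416 and 6802 in Flag/HA control cells (log2 change -0.43 ± 0.06 SE, adjusted p = 8.92e-07 and log2 change -0.60 ± 0.06 SE, adjusted p = 5.31e-09). In the other set P4HA1 averaged 2961 ± 317 in libraries labelled ZC3H7A/B-DD and 3384 ± 157 in Parental libraries (SD, n = 3 each) and was not called (log2 change -0.20 ± 0.10 SE, adjusted p = 0.174). ANKRD37, a small ankyrin repeat gene, lay at low counts, with 17.9, 17.3 and 23.1 normalized counts in libraries labelled ZC3H7A/B-DD, against 47.8, 39.1 and 37.6 in Parental libraries, and it fell there (log2 change -1.06 ± 0.25 SE, adjusted p = 0.0149). The ANKRD37 call was lost without Parental replicate 1 or Parental replicate 2, at log2 changes of -0.96 and -1.10, and its adjusted p lay between 0.00294 and 0.0743 over its alternatives. Its exons overlap UFSP2 on the opposite strand. In the overexpressing lines ANKRD37 had 6.70, 11.2 and 13.0 in Flag/HA-ZC3H7A and 10.6, 8.05 and 16.1 in Flag/HA-ZC3H7B cells, against 25.3, 13.2 and 22.6 in Flag/HA control cells, and was not called (log2 change -0.91 ± 0.43 SE, adjusted p = 0.0727 and log2 change -0.76 ± 0.43 SE, adjusted p = 0.139). Without Flag/HA control replicate 2 it was called lower in Flag/HA-ZC3H7A cells (log2 change -1.19, adjusted p = 0.0404).

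BNIP3 and BNIP3L, the receptors that mark mitochondria for removal by autophagy, gave 1 call in the 3 comparisons with a control. BNIP3 averaged 1710.2 ± 76.7 normalized counts in Flag/HA-ZC3H7A cells and 1533 ± 89.1 in Flag/HA control cells (SD, n = 3 each), and the small increase was called although the groups overlapped (log2 change 0.16 ± 0.06 SE, adjusted p = 0.0392). The BNIP3 call was lost without Flag/HA-ZC3H7A replicate 2, Flag/HA-ZC3H7A replicate 3, Flag/HA control replicate 2 or Flag/HA control replicate 3, at log2 changes of 0.14, 0.14, 0.15 and 0.12, and its adjusted p lay between 0.0155 and 0.177 over its alternatives. In libraries labelled ZC3H7A/B-DD, BNIP3 averaged 873 ± 75.5, against 914 ± 88.5 in Parental libraries (log2 change -0.07 ± 0.11 SE, adjusted p = 0.694). BNIP3L was called in none of the 3 comparisons with a control when all libraries were kept, with log2 changes of 0.13, -0.05 and 0.14 for Flag/HA-ZC3H7A, for Flag/HA-ZC3H7B and for libraries labelled ZC3H7A/B-DD. Without Flag/HA control replicate 1 it was called in Flag/HA-ZC3H7A cells (log2 change 0.17, adjusted p = 0.047).

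Glucose entry showed its sharpest change at 1 carrier. SLC2A3 (chr12:7919230-7936275), the high-affinity glucose transporter GLUT3, had 230.3, 204 and 236 normalized counts in Flag/HA-ZC3H7A and 349.7, 361 and 296 in Flag/HA-ZC3H7B cells, against 439, 476 and 466 in Flag/HA control cells. It fell in both lines (log2 change -1.04 ± 0.10 SE, adjusted p = 5.99e-09 and log2 change -0.46 ± 0.10 SE, adjusted p = 4.83e-04), and further in Flag/HA-ZC3H7A than in Flag/HA-ZC3H7B cells (log2 change -0.58 ± 0.10 SE, adjusted p = 6.00e-05). Libraries labelled ZC3H7A/B-DD gave 409, 349.7 and 406, against 102, 102 and 91.4 in Parental libraries. That difference, a 3.91-fold higher level with no overlap, was the largest called among the members in any comparison (log2 change 1.97 ± 0.13 SE, adjusted p = 2.69e-05). SLC2A1, the widely expressed carrier GLUT1, was called in none of the 3 comparisons with the deposited scaling, at 4125 ± 234 in Flag/HA-ZC3H7A, 4181 ± 88.0 in Flag/HA-ZC3H7B and 4116 ± 168 normalized counts in Flag/HA control cells (SD, n = 3 each). Quantile scaling called it higher in Flag/HA-ZC3H7B cells (log2 change 0.14, adjusted p = 0.00961). Its 95% interval was -0.05 to 0.34 for libraries labelled ZC3H7A/B-DD against Parental libraries.

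The mix of the 2 carriers followed SLC2A3. Per coding length, SLC2A3 took 5.12% ± 0.606 of the footprints of both genes in Flag/HA-ZC3H7A and 7.37% ± 0.571 in Flag/HA-ZC3H7B cells, against 10.0% ± 0.732 in Flag/HA control cells (SD, n = 3 each). It took 3.34% ± 0.277 in libraries labelled ZC3H7A/B-DD, against 0.956% ± 0.00945 in Parental libraries. SLC2A1 took the larger share in every library. The lactate transporters divided by level. SLC16A1 (MCT1) had 27015, 27049 and 26085 normalized counts in Flag/HA-ZC3H7A and 27542, 28068 and 26092 in Flag/HA-ZC3H7B cells, against 33696, 30449 and 31561 in Flag/HA control cells, and fell slightly in both (log2 change -0.25 ± 0.05 SE, adjusted p = 7.25e-05 and log2 change -0.23 ± 0.05 SE, adjusted p = 2.86e-04). Both calls were lost with all 15 libraries in 1 fit. SLC16A3 (MCT4), the lactate exporter of glycolytic tissues, had 24.1, 74.0 and 110.0 in libraries labelled ZC3H7A/B-DD, against 29.1, 17.4 and 7.11 in Parental libraries. These ranges overlap and the difference was not called (log2 change 1.85 ± 0.60 SE, adjusted p = 0.0518), though edgeR and DESeq2 called it, and its adjusted p lay between 0.00107 and 0.162 over its alternatives. SLC16A3 exons overlap CSNK1D on the opposite strand, and SLC16A3 stood at 9.66 normalized counts per coding kilobase in Flag/HA control cells, against 21226 ± 1098 for SLC16A1.

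The members with the most footprints per coding length were glycolytic enzymes. Per kilobase of coding sequence, LDHB stood at 100665 ± 2052, ENO1 at 94829.9 ± 4411, PKM at 53855 ± 1649 and ALDOA at 40369 ± 1475 normalized counts in Flag/HA control cells (SD, n = 3), where HIF1A stood at 5550.1 ± 175 and HK2 at 533 ± 20.4. LDHB and ENO1 lay close together and stood in the other order in Parental libraries, at 109863 ± 11688 and 124724 ± 26942. The 17 enzymes together took 1.41% ± 0.0407 of assigned reads in Flag/HA-ZC3H7A and 1.55% ± 0.0800 in Flag/HA-ZC3H7B cells, against 1.41% ± 0.0269 in Flag/HA control cells. They took 1.75% ± 0.103 in libraries labelled ZC3H7A/B-DD, against 1.98% ± 0.253 in Parental libraries. Of the 17, 6 rose and 5 fell in Flag/HA-ZC3H7A cells, 6 rose and 1 fell in Flag/HA-ZC3H7B cells, and 1 rose and 1 fell in libraries labelled ZC3H7A/B-DD. Over all genes, 29.2% were higher and 28.2% lower in Flag/HA-ZC3H7A, 28.9% and 25.4% in Flag/HA-ZC3H7B, and 11% and 13.5% in libraries labelled ZC3H7A/B-DD. Without Parental replicate 3, HK1 (log2 change 0.28, adjusted p = 0.0177) and ALDOC (log2 change 0.39, adjusted p = 0.025) were also called higher in the last contrast.

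In the upper steps of the pathway, HK2, GPI and PFKP rose in both overexpressing lines. HK2, the inducible hexokinase that traps glucose in the cell, had 2394, 2129 and 2252 normalized counts in Flag/HA-ZC3H7A and 1945, 1679 and 1756 in Flag/HA-ZC3H7B cells, against 1528, 1416 and 1461 in Flag/HA control cells (log2 change 0.62 ± 0.06 SE, adjusted p = 5.10e-09 and log2 change 0.29 ± 0.06 SE, adjusted p = 2.73e-04). The constitutive HK1 went the other way by a small amount, with averages of 8675 ± 300.2 and 8384 ± 328 in these lines, against 9485 ± 332 in Flag/HA control cells (log2 change -0.13 ± 0.05 SE, adjusted p = 0.0176 and log2 change -0.18 ± 0.05 SE, adjusted p = 0.0018). The HK1 call in Flag/HA-ZC3H7A was lost without Flag/HA-ZC3H7A replicate 2, Flag/HA-ZC3H7A replicate 3 or Flag/HA control replicate 1, at log2 changes of -0.12, -0.11 and -0.10, and its adjusted p lay between 0.00233 and 0.917 over its alternatives. That in Flag/HA-ZC3H7B held with any 1 library left out. It was lost with quantile scaling and with all 15 libraries in 1 fit, and its adjusted p lay between 1.18e-05 and 0.107. HK2 therefore made up 20.7% ± 0.642 of both hexokinases per coding length in Flag/HA-ZC3H7A and 17.6% ± 1.16 in Flag/HA-ZC3H7B cells, against 13.4% ± 0.214 in Flag/HA control cells. In libraries labelled ZC3H7A/B-DD, HK2 had 2458, 4307 and 5862 normalized counts, against 2168, 2203 and 3543 in Parental libraries. The replicates were so spread that this was not called (log2 change 0.62 ± 0.30 SE, adjusted p = 0.155), but it was called without Parental replicate 3 (log2 change 0.86) and without ZC3H7A/B-DD replicate 1 (log2 change 0.97). Over its alternatives the adjusted p of HK2 in this contrast lay between 6.82e-04 and 0.426. In Flag/HA-ZC3H7B against Flag/HA control cells, the HK2 call was lost with all 15 libraries in 1 limma fit (log2 change 0.29, adjusted p = 0.308).

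GPI, which converts glucose 6-phosphate to fructose 6-phosphate, had 44139, 43489.8 and 40483 normalized counts in Flag/HA-ZC3H7A and 39079.8, 38343 and 36922 in Flag/HA-ZC3H7B cells, against 31052, 30050.2 and 29481 in Flag/HA control cells (log2 change 0.50 ± 0.05 SE, adjusted p = 4.25e-09 and log2 change 0.34 ± 0.05 SE, adjusted p = 2.17e-06). Phosphofructokinase, the main control point of glycolysis, changed isozyme by isozyme. The platelet-type PFKP (chr10:3066333-3137712) had 12600.1, 11964 and 11409 and 11947, 12023 and 11316 in the same lines, against 8438, 8109.8 and 8217 in Flag/HA control cells, and rose by nearly the same amount in each (log2 change 0.54 ± 0.05 SE, adjusted p = 5.67e-10 and log2 change 0.51 ± 0.05 SE, adjusted p = 1.45e-09). The muscle-type PFKM was not called in the unweighted limma fit of all libraries as deposited (log2 change -0.06 ± 0.05 SE, adjusted p = 0.338 in Flag/HA-ZC3H7A and log2 change 0.05 ± 0.05 SE, adjusted p = 0.438 in Flag/HA-ZC3H7B), though quantile scaling called it higher in Flag/HA-ZC3H7B (log2 change 0.18, adjusted p = 0.00182). Between the lines PFKM was called without Flag/HA-ZC3H7B replicate 3 (log2 change -0.17, adjusted p = 0.006), as it was with quantile scaling and with array weights. The liver-type PFKL moved in opposite directions, with 3658, 3564 and 3314 in Flag/HA-ZC3H7A and 4277, 4225 and 4342 in Flag/HA-ZC3H7B cells, against 3943, 3809 and 3921 in Flag/HA control cells (log2 change -0.15 ± 0.05 SE, adjusted p = 0.0079 and log2 change 0.14 ± 0.05 SE, adjusted p = 0.0139). Both PFKL changes are small, and the direct test between the lines was called (log2 change -0.29 ± 0.05 SE, adjusted p = 2.17e-05). The PFKL call in Flag/HA-ZC3H7A was lost without Flag/HA-ZC3H7A replicate 3, at a log2 change of -0.11, and its adjusted p lay between 0.00169 and 0.26 over its alternatives. That in Flag/HA-ZC3H7B was lost without Flag/HA control replicate 2, at a log2 change of 0.12, and its adjusted p lay between 5.00e-05 and 0.0829 over its alternatives. PFKP made up 55.1% ± 0.301 of phosphofructokinase footprints per coding length in Flag/HA-ZC3H7A and 51.6% ± 0.156 in Flag/HA-ZC3H7B cells, against 44.2% ± 0.490 in Flag/HA control cells. In libraries labelled ZC3H7A/B-DD it made up 56.4% ± 0.248, against 60.1% ± 0.227 in Parental libraries, although none of the 3 isozymes was called there in the unweighted limma fit of all libraries. Without Parental replicate 3, PFKM was called higher (log2 change 0.36, adjusted p = 0.0085, against a log2 change of 0.15 with it). Array weights on all libraries of this contrast called PFKM higher too (log2 change 0.27, adjusted p = 0.0206, limma).

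Enolase, which forms phosphoenolpyruvate, separated the overexpressing lines. ENO1 (chr1:8861000-8879250), the ubiquitous isozyme, had 89963, 87118 and 80449.8 normalized counts in Flag/HA-ZC3H7A and 140345, 139953 and 116783 in Flag/HA-ZC3H7B cells, against 130391, 120732 and 120136 in Flag/HA control cells. It fell in Flag/HA-ZC3H7A (log2 change -0.53 ± 0.07 SE, adjusted p = 3.70e-07), was not called in Flag/HA-ZC3H7B (log2 change 0.09 ± 0.07 SE, adjusted p = 0.251), and differed between the lines (log2 change -0.62 ± 0.07 SE, adjusted p = 6.45e-08). Without Flag/HA-ZC3H7B replicate 3, ENO1 was called higher in Flag/HA-ZC3H7B cells (log2 change 0.18, adjusted p = 0.00168), as it was with quantile scaling and with array weights. In libraries labelled ZC3H7A/B-DD, ENO1 had 90077, 102631 and 88715, against 136962, 148519.9 and 202811 in Parental libraries, and fell (log2 change -0.78 ± 0.18 SE, adjusted p = 0.0156). Parental replicate 3 held 1.42 times the mean ENO1 of Parental replicates 1 and 2, and without it the log2 change was -0.61. The ENO1 call was lost without ZC3H7A/B-DD replicate 1, ZC3H7A/B-DD replicate 3 or Parental replicate 2, at log2 changes of -0.75, -0.74 and -0.83, and its adjusted p lay between 9.70e-06 and 0.0566 over its alternatives.

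ENO2 (chr12:6913745-6923698), the neuron-type isozyme, had 2962, 3259.6 and 2942 normalized counts in Flag/HA-ZC3H7A and 4835, 5331 and 4717 in Flag/HA-ZC3H7B cells, against 4189, 3927 and 3954 in Flag/HA control cells. The 3 groups did not overlap, and ENO2 fell in Flag/HA-ZC3H7A (log2 change -0.40 ± 0.05 SE, adjusted p = 7.54e-07) and rose in Flag/HA-ZC3H7B cells (log2 change 0.30 ± 0.05 SE, adjusted p = 3.78e-05), with a direct difference of log2 change -0.70 ± 0.05 SE, adjusted p = 2.02e-10. Libraries labelled ZC3H7A/B-DD gave 4335, 5178 and 4964, against 3496, 3764 and 4199.8 in Parental libraries (log2 change 0.34 ± 0.10 SE, adjusted p = 0.043). The ENO2 call was lost without ZC3H7A/B-DD replicate 2, ZC3H7A/B-DD replicate 3, Parental replicate 1 or Parental replicate 2, at log2 changes of 0.28, 0.31, 0.28 and 0.33, and its adjusted p lay between 5.69e-04 and 0.148 over its alternatives. The ENO2 call was also lost with edgeR and with TMM scaling. ENO2 made up 4.90% ± 0.363 of enolase footprints per coding length in libraries labelled ZC3H7A/B-DD, against 2.33% ± 0.261 in Parental libraries, with ranges of 4.59% to 5.30% and 2.03% to 2.49%.

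**Figure D4:**
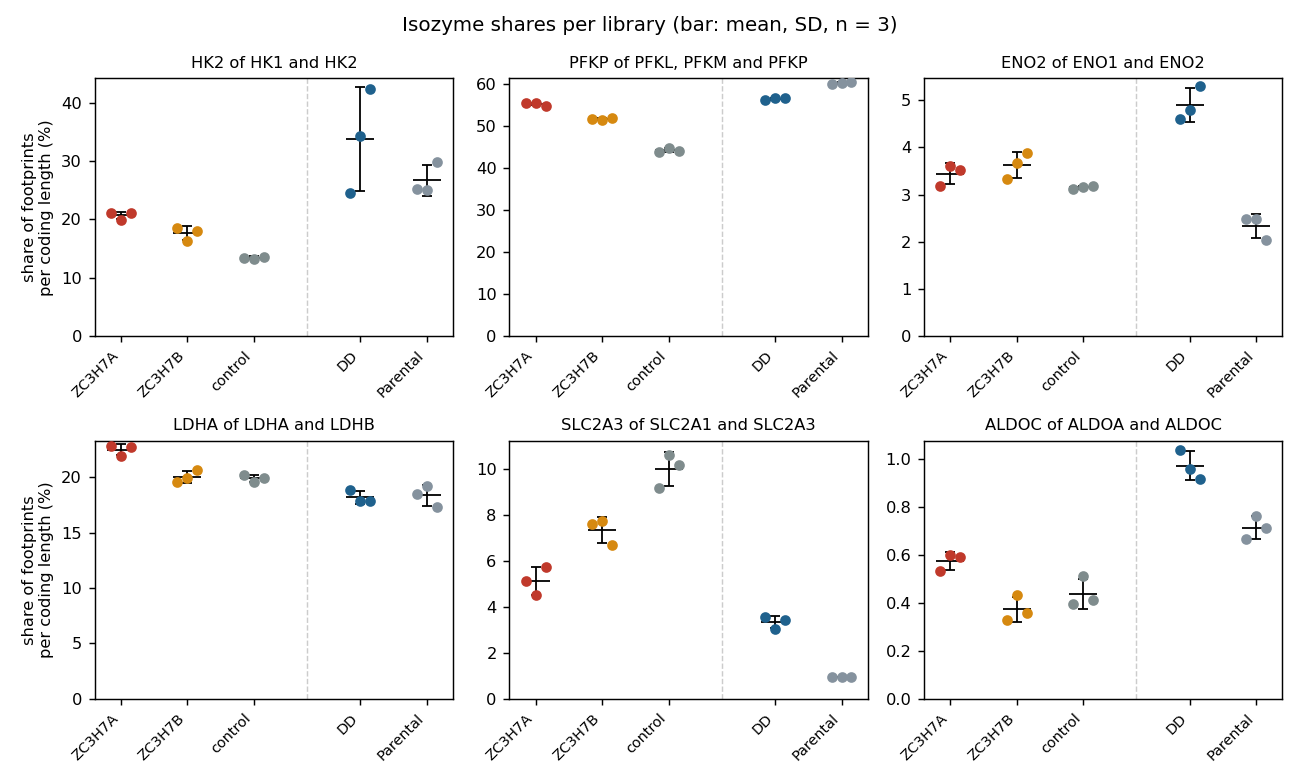
Share of footprints per coding length (y axis, percent, from 0) taken by 1 isozyme of its family in each library, with points for libraries and bars for the mean and SD (n = 3); the dashed line parts the Flag/HA set (ZC3H7A, ZC3H7B, control) from the libraries labelled ZC3H7A/B-DD (DD) and Parental. HK2 and PFKP take larger shares in both overexpressing lines than in control, SLC2A3 takes smaller ones, and ENO2 and SLC2A3 take larger shares in the DD libraries than in Parental libraries.

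Several enzymes of the middle and lower steps were not called. ALDOA, TPI1 and GAPDH, which carry the triose steps, were called in no comparison in the unweighted limma fit of all libraries as deposited, and LDHB was not either. Quantile scaling called LDHB higher in Flag/HA-ZC3H7A than in control cells (log2 change 0.29, adjusted p = 1.37e-07, against a log2 change of 0.02 with the deposited scaling) and than in Flag/HA-ZC3H7B cells (log2 change 0.33, adjusted p = 4.08e-08). It also called GAPDH higher in Flag/HA-ZC3H7B cells (log2 change 0.12, adjusted p = 0.013). ALDOA was called lower in Flag/HA-ZC3H7A than in Flag/HA-ZC3H7B cells without Flag/HA-ZC3H7A replicate 1, without Flag/HA-ZC3H7B replicate 3 (log2 change -0.15, adjusted p = 0.0153) and with the replicate block, and higher in Flag/HA-ZC3H7B than in control cells with array weights. The 95% intervals for GAPDH were -0.14 to 0.09 in Flag/HA-ZC3H7A and -0.08 to 0.15 in Flag/HA-ZC3H7B cells, and the wider -0.61 to 0.31 in libraries labelled ZC3H7A/B-DD. Parental replicate 3 held 1.46 times the mean GAPDH and 1.47 times the mean PKM of the other 2 Parental libraries. PKM, pyruvate kinase, was called in no comparison with a control in that fit. It was called higher in libraries labelled ZC3H7A/B-DD without Parental replicate 3 (log2 change 0.35, adjusted p = 0.0254), and higher in Flag/HA-ZC3H7B cells without Flag/HA-ZC3H7B replicate 3 (log2 change 0.19, adjusted p = 1.22e-04, against a log2 change of 0.11 with it). Array weights gave both calls too. PGK1, phosphoglycerate kinase, averaged 19566 ± 703 normalized counts in Flag/HA-ZC3H7A and 21754 ± 1037 in Flag/HA control cells (SD, n = 3 each) and was called lower (log2 change -0.15 ± 0.05 SE, adjusted p = 0.00965). The PGK1 call was lost without Flag/HA-ZC3H7A replicate 3 or Flag/HA control replicate 1, at log2 changes of -0.12 and -0.11, and its adjusted p lay between 5.12e-04 and 0.237 over its alternatives. ALDOC, the brain-type aldolase, averaged 248 ± 14.0 in Flag/HA-ZC3H7A and 194 ± 24.8 in Flag/HA control cells and was called higher (log2 change 0.36 ± 0.13 SE, adjusted p = 0.0197). The ALDOC call was lost without Flag/HA-ZC3H7A replicate 2, Flag/HA control replicate 1 or Flag/HA control replicate 3, at log2 changes of 0.32, 0.32 and 0.30, and its adjusted p lay between 0.00875 and 0.102 over its alternatives.

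LDHA, the lactate dehydrogenase subunit that HIF-1 induces, had 30471, 29191 and 29292 normalized counts in Flag/HA-ZC3H7A and 25363, 25159 and 22696 in Flag/HA-ZC3H7B cells, against 26001, 24061 and 24993 in Flag/HA control cells. It rose in Flag/HA-ZC3H7A (log2 change 0.25 ± 0.05 SE, adjusted p = 1.58e-04) and was not called in Flag/HA-ZC3H7B cells (log2 change -0.04 ± 0.05 SE, adjusted p = 0.551), and the lines differed (log2 change 0.28 ± 0.05 SE, adjusted p = 6.08e-05). LDHA made up 22.5% ± 0.481 of both subunits per coding length in Flag/HA-ZC3H7A, 20.0% ± 0.534 in Flag/HA-ZC3H7B and 19.9% ± 0.300 in Flag/HA control cells. PGAM1, phosphoglycerate mutase, needs a caution. It had 245, 212 and 237 in Flag/HA-ZC3H7A and 263, 235 and 223 in Flag/HA-ZC3H7B cells, against 106, 119.6 and 98.1 in Flag/HA control cells, and was called higher in both (log2 change 1.10 ± 0.13 SE, adjusted p = 1.08e-07 and log2 change 1.15 ± 0.13 SE, adjusted p = 5.94e-08). Yet its level of 141 ± 14.2 per coding kilobase is far under that of its neighbours in the pathway. Rows named as PGAM1 pseudogenes, 13 in number, summed to 22.6% of its value in Flag/HA-ZC3H7A and 15.9% in Flag/HA-ZC3H7B, against 34.7% in Flag/HA control libraries, and to 185% in libraries labelled ZC3H7A/B-DD, against 103% in Parental libraries. In normalized counts these sums averaged 52.4 in Flag/HA-ZC3H7A and 38.1 in Flag/HA-ZC3H7B, against 37.5 in Flag/HA control libraries. Whether reads were split between PGAM1 and these rows was not tested, and its change is uncertain.

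Regulators of flux gave 1 of the clearest increases. PFKFB3 (chr10:6144934-6254644) makes fructose 2,6-bisphosphate, the strongest activator of phosphofructokinase, and had 1497, 1409.7 and 1603 normalized counts in Flag/HA-ZC3H7A and 1245, 1246 and 1376 in Flag/HA-ZC3H7B cells, against 694, 714 and 694 in Flag/HA control cells. Every overexpression library lay well above every control library. PFKFB3 rose in both lines (log2 change 1.10 ± 0.06 SE, adjusted p = 8.36e-13 and log2 change 0.88 ± 0.06 SE, adjusted p = 4.01e-11) and more in Flag/HA-ZC3H7A (log2 change 0.22 ± 0.06 SE, adjusted p = 0.00717). In the other set it averaged 1568 ± 182 in libraries labelled ZC3H7A/B-DD and 1429.8 ± 54.5 in Parental libraries (SD, n = 3 each) and was not called (log2 change 0.13 ± 0.10 SE, adjusted p = 0.386). PFKFB4, its paralog, had 159, 133 and 128 in Flag/HA-ZC3H7A cells, against 119, 80.2 and 119 in Flag/HA control cells. These groups did not overlap and the difference missed the threshold (log2 change 0.41 ± 0.19 SE, adjusted p = 0.0668). It was called without Flag/HA control replicate 1 (log2 change 0.51, adjusted p = 0.0478), with array weights and with only the 6 libraries compared, and its adjusted p lay between 0.0407 and 0.358 over its alternatives.

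PDK1 (chr2:172555373-172608669), the kinase that closes pyruvate dehydrogenase and so keeps pyruvate from mitochondria, was lower in all 3 comparisons with a control. It had 1458, 1288 and 1594 normalized counts in Flag/HA-ZC3H7A and 1443, 1369.6 and 1407 in Flag/HA-ZC3H7B cells, against 1741, 1780.1 and 1620.4 in Flag/HA control cells (log2 change -0.25 ± 0.07 SE, adjusted p = 0.00226 and log2 change -0.28 ± 0.07 SE, adjusted p = 7.31e-04). Under the ZC3H7A/B-DD label there were 1122, 1074 and 1185, against 1566, 1629 and 1307 in Parental libraries (log2 change -0.41 ± 0.10 SE, adjusted p = 0.0208). No group overlapped its control. The PDK1 call was lost without ZC3H7A/B-DD replicate 1, ZC3H7A/B-DD replicate 2, Parental replicate 1 or Parental replicate 2, at log2 changes of -0.40, -0.37, -0.37 and -0.35, and its adjusted p lay between 1.58e-04 and 0.104 over its alternatives.

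The direct test of Flag/HA-ZC3H7A against Flag/HA-ZC3H7B cells called 16 of 34 members, 11 higher and 5 lower in Flag/HA-ZC3H7A, where 36.6% of all genes were called, 18.4% higher and 18.2% lower. The groups did not overlap for 13 members, where 43.7% of all genes did not. Its largest called differences were ENO2 (-0.70), ENO1 (-0.62), SLC2A3 (-0.58), NDRG1 (0.56) and ALDOC (0.51) on the log2 scale, none of them 2-fold, where 3.19% of all genes were called at that size. With all 15 libraries in 1 fit only 8 members were called in this test, 4 in each direction.

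Between the Flag/HA set and the other set, no library is shared. Of the 9 members called both in Flag/HA-ZC3H7A against control and in libraries labelled ZC3H7A/B-DD against Parental, 6 had opposite directions (SLC2A3, ENO2, EGLN1, HIF1A, VEGFA and NDRG1) and 3 the same (ENO1, PDK1 and ADM). Over all genes called in both, 49.5% of 2650 were opposite. For Flag/HA-ZC3H7B, 8 members were called in both, 5 with opposite directions (SLC2A3, EGLN1, HIF1A, VEGFA and NDRG1) and 3 with the same (ENO2, PDK1 and ADM), against 54.6% opposite of 2421 genes. With so few members these shares are descriptions, and for EGLN1, ENO2, HIF1A, ENO1, PDK1 and ADM they rest on calls in the second set that single libraries decide, as given above.

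Neighbouring pathways were read from lists of other genes, with 57.5%, 54.3% and 24.5% of all genes called in the 3 comparisons with a control. Of 14 genes tested that bring pyruvate into mitochondria or control that step, 3 were higher and 8 lower in Flag/HA-ZC3H7A, 1 higher and 8 lower in Flag/HA-ZC3H7B, and 2 higher and 0 lower in libraries labelled ZC3H7A/B-DD. PDK3, a paralog of PDK1, averaged 2495 ± 159.5 in Flag/HA-ZC3H7A and 1981 ± 143 in Flag/HA-ZC3H7B cells, against 3079 ± 77.6 normalized counts in Flag/HA control cells (log2 change -0.30 ± 0.06 SE, adjusted p = 6.52e-05 and log2 change -0.64 ± 0.06 SE, adjusted p = 1.46e-09). Of 10 pentose phosphate pathway genes, 3 were higher and 3 lower in Flag/HA-ZC3H7A, 3 higher and 2 lower in Flag/HA-ZC3H7B, and 0 higher and 3 lower in libraries labelled ZC3H7A/B-DD. PGD, which yields NADPH in that pathway, was lower in Flag/HA-ZC3H7A (log2 change -0.32 ± 0.05 SE, adjusted p = 4.06e-06) and higher in Flag/HA-ZC3H7B cells (log2 change 0.26 ± 0.05 SE, adjusted p = 5.87e-05), with a direct difference of log2 change -0.58 ± 0.05 SE, adjusted p = 7.50e-10.

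Genes of the HIF machinery outside the module were called in both directions. Of 16 other HIF pathway genes tested, 8 were higher and 4 lower in Flag/HA-ZC3H7A, 9 higher and 4 lower in Flag/HA-ZC3H7B, and 5 higher and 5 lower in libraries labelled ZC3H7A/B-DD. The shares of all genes higher and lower were 29.2% and 28.2%, 28.9% and 25.4%, and 11% and 13.5%, in that order. EGLN2, another prolyl hydroxylase of HIF subunits, rose in Flag/HA-ZC3H7A cells (log2 change 1.60 ± 0.17 SE, adjusted p = 3.43e-08). The ubiquitin ligase SIAH1 rose in both lines (log2 change 1.18 ± 0.13 SE, adjusted p = 5.77e-08 in Flag/HA-ZC3H7A, log2 change 1.08 ± 0.13 SE, adjusted p = 2.41e-07 in Flag/HA-ZC3H7B). CUL2, the scaffold of the ligase that destroys HIF1A protein, was lower in both lines (log2 change -0.79 ± 0.05 SE, adjusted p = 1.10e-11 in Flag/HA-ZC3H7A, log2 change -0.60 ± 0.05 SE, adjusted p = 1.17e-09 in Flag/HA-ZC3H7B). VHL, the substrate receptor of that ligase, was higher in Flag/HA-ZC3H7B (log2 change 0.53 ± 0.06 SE, adjusted p = 9.29e-08). VHL averaged 3683 ± 390 in Flag/HA-ZC3H7A and 4118 ± 24.7 in Flag/HA-ZC3H7B, against 2862 ± 185 normalized counts in Flag/HA control cells (SD, n = 3 each). OS9, a lectin of protein quality control in the endoplasmic reticulum, was lower in both lines (log2 change -0.48 ± 0.05 SE, adjusted p = 7.24e-09 and log2 change -0.50 ± 0.05 SE, adjusted p = 4.93e-09) and in libraries labelled ZC3H7A/B-DD (log2 change -0.60 ± 0.10 SE, adjusted p = 0.00292). EPAS1, which encodes HIF-2 alpha, averaged 109.8 ± 6.73 in libraries labelled ZC3H7A/B-DD and 183 ± 28.1 in Parental libraries (log2 change -0.72 ± 0.15 SE, adjusted p = 0.0102). HIF1AN, the asparaginyl hydroxylase that blocks HIF coactivators, was higher there (log2 change 0.37 ± 0.08 SE, adjusted p = 0.0103).

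Of 36 other hypoxia-induced genes tested, 10 were higher and 17 lower in Flag/HA-ZC3H7A, 13 higher and 17 lower in Flag/HA-ZC3H7B, and 3 higher and 8 lower in libraries labelled ZC3H7A/B-DD. Shares over all genes in that order were 29.2% higher and 28.2% lower, 28.9% and 25.4%, and 11% and 13.5%. STC2, a secreted stress glycoprotein, averaged 2629.6 ± 83.8 in Flag/HA-ZC3H7A and 1447 ± 29.8 in Flag/HA control cells (log2 change 0.86 ± 0.06 SE, adjusted p = 9.23e-12), and 1142 ± 72.8 in libraries labelled ZC3H7A/B-DD against 3999 ± 440.2 in Parental libraries (log2 change -1.80 ± 0.10 SE, adjusted p = 1.34e-05). ERO1L, the oxidase that drives disulfide bonds in the endoplasmic reticulum, averaged 3442 ± 133 in Flag/HA-ZC3H7B and 8995 ± 99.5 in Flag/HA control cells (log2 change -1.39 ± 0.05 SE, adjusted p = 8.32e-17), and 7356 ± 444 in Flag/HA-ZC3H7A cells, above Flag/HA-ZC3H7B (log2 change 1.09 ± 0.05 SE, adjusted p = 1.36e-14). PLOD2, a collagen lysyl hydroxylase, fell in both lines (log2 change -0.83 ± 0.04 SE, adjusted p = 1.14e-13 and log2 change -1.05 ± 0.04 SE, adjusted p = 1.36e-15), as did P4HA1 of the same pathway. GBE1, the glycogen branching enzyme, fell in Flag/HA-ZC3H7A cells (log2 change -1.31 ± 0.06 SE, adjusted p = 7.27e-15). In Flag/HA-ZC3H7B cells GBE1 averaged 1346 ± 47.6, against 2318 ± 75.0 in Flag/HA control cells. HMOX1, which degrades heme, was lower in libraries labelled ZC3H7A/B-DD (log2 change -1.39 ± 0.12 SE, adjusted p = 1.14e-04). Of 16 to 18 tested isoforms and side steps of glycolysis, 2 were higher and 8 lower in Flag/HA-ZC3H7A, 3 higher and 8 lower in Flag/HA-ZC3H7B, and 3 higher and 4 lower in libraries labelled ZC3H7A/B-DD. In the last, C12orf5 (TIGAR), a phosphatase that lowers fructose 2,6-bisphosphate, was higher (log2 change 0.81 ± 0.10 SE, adjusted p = 6.31e-04).

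The members' promoters were searched for the cores of the hypoxia response element, ACGTG and GCGTG, on both strands in the 250 bases before the RefSeq gene start (GRCh38.p14). Of the 30 members with a promoter entry, 13 (43.3%) hold ACGTG, against 18.7% of 27305 promoters, and 10 (33.3%) hold GCGTG, against 31.9%. LDHA holds 5 ACGTG matches, ALDOC and ANKRD37 hold 3 each, and HIF1A holds none and 1 GCGTG. The list holds genes known to respond to hypoxia, and the share is a description of these windows. Of the 5 promoters of members that were lower in libraries labelled ZC3H7A/B-DD, 2 hold ACGTG, and of the 21 promoters of members not called there, 9 do.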

How the data were processed

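The deposited table holds, for 15 ribosome profiling libraries, a normalized signal that the authors made by dividing gene counts by a size factor per library, as the values themselves show: multiplied back, they gave whole reads within 0.001. Tools named without versions in the submitters' processing notes are HTSeq, STAR, Bowtie, cutadapt and DESeq2, with hg38 and hg19 as builds. limma 3.58.1 (R 4.3.3) was run on log2(value + 1), keeping genes that reached 10 in 3 libraries of the fit, with 9 Flag/HA libraries in 1 fit and the 6 others apart, with trended variances and Benjamini-Hochberg adjustment at 0.05. A trial on simulated counts gave all genes 1 common spread and held no outlying library. It therefore does not gauge calls in sets with a library like Parental replicate 3. edgeR 4.0.16 and DESeq2 1.42.0 on the recovered reads, scaling, filter, pseudocount, weights and left-out libraries were alternatives. Named were all 35 members, the targeted genes and, from each list of other genes and each comparison, a choice among up to 2 called genes in each direction with the smallest p. Members and lists were chosen with earlier results of these data known. Coordinates and coding lengths are from GENCODE release 29 (GRCh38), matched by gene symbol, and promoters from RefSeq. Same-numbered replicates correlated in their deviations at -0.145 to 0.193 in the Flag/HA lines and -0.271 to -0.0472 in the others, so the numbers were not used as pairs.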

Additional observations from a re-analysis of the deposited data

Results flagged for a closer look

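PFKL and ENO2 were called in opposite directions in the overexpressing lines, lower in Flag/HA-ZC3H7A and higher in Flag/HA-ZC3H7B cells, and the direct test between the lines (limma) was called for both. The log2 difference, Flag/HA-ZC3H7A minus Flag/HA-ZC3H7B, was -0.29 for PFKL and -0.70 for ENO2.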

How the results depend on the processing

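No member's called change reversed in any alternative. With all 15 libraries in 1 fit, Flag/HA-ZC3H7A against Flag/HA-ZC3H7B called 8 members, against 16. In the libraries labelled ZC3H7A/B-DD against Parental, array weights called 9003 genes and 19 members, and a fit without a variance trend called 7 members, against 4182 genes and 11 members. Leaving out 1 library gave 1959 to 5631 genes and 4 to 15 members in that contrast, with the lowest counts without Parental replicate 2. It gave 8131 to 8587 genes and 18 to 22 members in Flag/HA-ZC3H7A against control, 7581 to 8009 genes and 16 to 19 members in Flag/HA-ZC3H7B against control, and 5009 to 5520 genes and 12 to 15 members between the overexpressing lines. The cause of these shifts was not tested.

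With the replicate number as a block, 9169 genes and 22 members were called in Flag/HA-ZC3H7A, 8714 and 17 in Flag/HA-ZC3H7B, 6026 and 17 between these lines, and 2992 and 8 in the libraries labelled ZC3H7A/B-DD. The samples share only a number, so calls lost under the block are not read as weaker effects.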
